A study of Homo sapiens with 16 samples.

Results

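SUM159PT and MDA-MB-231 are established human breast cancer cell lines that serve widely as models of triple-negative disease, tumours that lack the oestrogen receptor, the progesterone receptor and an excess of ERBB2. The comparison described here sets the 4 SUM159PT libraries that received a non-targeting guide RNA (sgNTS) against the 4 MDA-MB-231 libraries that received the same kind of guide, 8 of the 16 libraries of the study. The libraries were picked by their labels. They and the gene lists used below were, however, chosen with earlier results of these data known. The question is how the 2 lines differ with no gene targeted, in cells that had received a guide.

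As background, both lines grow as spindle-shaped cells and are usually placed among the mesenchymal-like triple-negative lines. MDA-MB-231 came from a pleural effusion and carries an activating BRAF mutation, and SUM159PT came from a primary anaplastic carcinoma and carries activating HRAS and PIK3CA mutations. Cells of epithelial origin that lose E-cadherin and gain vimentin are described as having passed through an epithelial-mesenchymal transition. That change is driven by the ZEB, SNAI and TWIST transcription factors.

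The cells of all 8 libraries were labelled wild type, received the guide by lipofection and were collected 48 h later. The labels name no nuclease or other protein beside the guides. MDA-MB-231 was kept in an RPMI medium and SUM159PT in Ham's F12, and the counts of each line were deposited in a table of its own. Line, medium and table therefore cannot be told apart in any result below. The study holds no library without a guide, so a response of each line to the transfection cannot be told apart either. The submitters call the 4 libraries of a group technical replicates, so the p-values measure only the spread between these samples, and each line is 1 model of its disease.

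The genes with the largest contrasts were close to silent in 1 line and abundant in the other. As picked examples, which do not stand for all such genes, the 250 bases upstream of a RefSeq start are printed below. They belong to IRX2, the gene with the largest fold in SUM159PT, and to FLNC and TIMP3, which stood at the other extreme. The sequences are from RefSeq on GRCh38.p14, read 5′ to 3′ on the strand of the gene, and the capitals mark every CG dinucleotide, the site of DNA methylation in human cells. The IRX2 window is chr5:2751678-2751927 on the minus strand, the FLNC window is chr7:128830156-128830405 on the plus strand and the TIMP3 window is chr22:32801455-32801704 on the plus strand.
IRX2: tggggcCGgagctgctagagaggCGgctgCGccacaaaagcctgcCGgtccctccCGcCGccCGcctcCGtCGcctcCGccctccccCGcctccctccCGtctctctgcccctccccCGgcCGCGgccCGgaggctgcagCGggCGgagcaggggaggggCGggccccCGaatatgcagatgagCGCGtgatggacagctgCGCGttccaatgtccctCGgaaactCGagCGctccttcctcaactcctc
FLNC: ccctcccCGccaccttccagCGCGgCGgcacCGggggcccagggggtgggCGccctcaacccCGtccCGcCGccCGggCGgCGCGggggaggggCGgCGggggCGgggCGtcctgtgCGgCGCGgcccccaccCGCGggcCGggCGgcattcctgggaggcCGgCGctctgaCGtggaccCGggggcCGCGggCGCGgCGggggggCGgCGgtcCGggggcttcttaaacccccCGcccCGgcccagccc
TIMP3: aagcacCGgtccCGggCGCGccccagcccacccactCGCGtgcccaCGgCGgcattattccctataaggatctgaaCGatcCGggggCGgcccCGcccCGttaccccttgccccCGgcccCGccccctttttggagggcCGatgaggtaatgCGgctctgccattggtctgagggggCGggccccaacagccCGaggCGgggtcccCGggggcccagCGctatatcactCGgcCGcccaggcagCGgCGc
The windows hold 27 CG dinucleotides before IRX2, 38 before FLNC and 26 before TIMP3. An observed-to-expected CpG ratio of at least 0.6 over the 250 bases before a start is a usual mark of CpG-rich promoters. A gene with several starts in the RefSeq table was counted by its highest ratio. Among all protein-coding genes matched to a promoter in that table, 69.0% reached this limit, and the share was 85.6% among the tested genes. In the printed windows, each of 1 start, the ratio was 0.835 for IRX2, 0.831 for FLNC and 0.802 for TIMP3. Each of these windows is above that limit. Among matched protein-coding genes detected in 1 line only, by the rule given below, the share at that limit was lower. It was 56.6% for SUM159PT and 63.1% for MDA-MB-231. The deposited tables hold no methylation values.

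The 8 libraries held between 14352042 and 24577063 counts. Replicate pairs differed by a chi-square of 2.29 to 6.88 per degree of freedom, except that replicate 4 of MDA-MB-231 stood at 9.42, 19.8 and 29.9 against its 3 partners. The mitochondrial share of that library was 2.34%, against 3.81 to 5.15% in the other MDA-MB-231 libraries and 3.42 to 3.60% in SUM159PT. Levels are counts per 1000000 counts of the library (CPM), scaled by the trimmed mean of M values, and means are given ± SD over 4 libraries (n = 4). Log2 differences are SUM159PT minus MDA-MB-231, and adjusted p-values are from edgeR's quasi-likelihood F-test with Benjamini-Hochberg adjustment over all tested genes. A list member is called "2-fold higher" when the adjusted p is below 0.05 and the fitted difference is at least 2-fold.

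Of 15567 genes tested, 12878 (82.7%) passed the edgeR test at an adjusted p below 0.05. At 2-fold or more, 2625 genes (16.9%) were higher in SUM159PT and 3124 (20.1%) were higher in MDA-MB-231, together 36.9% of those tested. Without replicate 4 of MDA-MB-231 these counts were 2771 and 3157. At 8-fold or more the counts were 752 (4.83%) in SUM159PT and 1340 (8.61%) in MDA-MB-231. The levels of the 8 libraries did not overlap between the lines for 12090 genes (77.7%), and for any such gene the exact permutation test on both sides gives its smallest possible p of 0.0286. The share of genes at least 2-fold apart was 57.5% among genes of 1 to 10 CPM in the higher line and 25.2% among genes of 100 CPM or more. The genes at least 8-fold higher in a line took up 3.58% of the counts of SUM159PT and 4.00% of the counts of MDA-MB-231. At the other end, 4891 genes (31.4%) had a 95% interval of the difference that lay wholly within 1.5-fold. The median difference of all tested genes was -0.02 on the log2 scale.

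**Figure D1:**
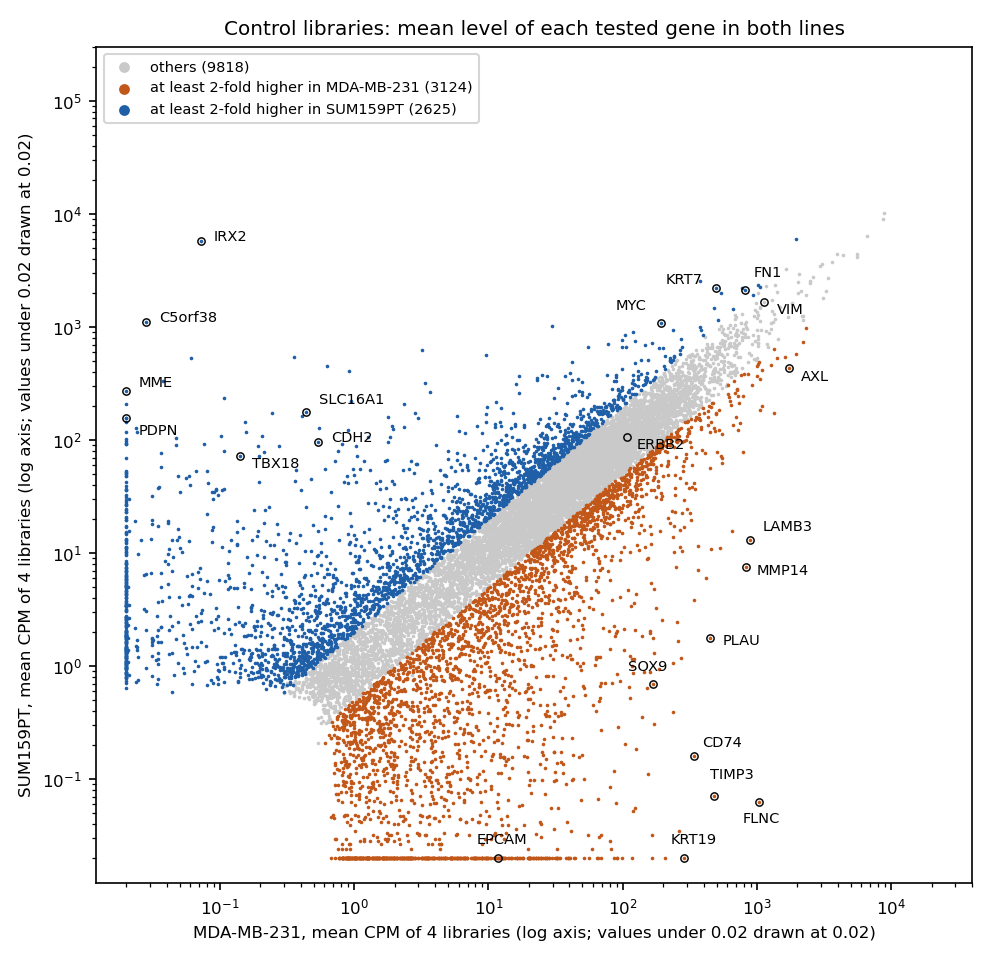
Mean CPM of each of 15567 tested genes in the 4 MDA-MB-231 libraries (horizontal) and the 4 SUM159PT libraries (vertical), both on log axes, with means under 0.02 drawn at 0.02. Blue marks the 2625 genes at least 2-fold higher in SUM159PT and orange the 3124 at least 2-fold higher in MDA-MB-231; IRX2 and PDPN lie at the upper left and FLNC and KRT19 at the lower right, near 0 in 1 line and above 100 CPM in the other, while ERBB2 and VIM lie close to the diagonal.

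The receptors whose absence gives triple-negative cancer its name were low or alike in the lines. ESR1, the oestrogen receptor, had 4 counts over the 4 MDA-MB-231 libraries and 17 over those of SUM159PT, and PGR, the progesterone receptor, had 0 in both. ERBB2, the receptor amplified in HER2-positive tumours, stood at 107 ± 2.07 CPM in MDA-MB-231 and 108 ± 4.67 CPM in SUM159PT, a log2 difference of 0.01 ± 0.04 (SE) with a 95% interval of -0.08 to 0.10 (edgeR adjusted p = 0.831).

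Luminal breast genes did not move as a block: of 14 tested members of that list, 5 were 2-fold higher in SUM159PT and 4 in MDA-MB-231. KRT8 and KRT18, paired keratins of simple epithelia, are named after their values were seen. KRT8 was at 733 ± 23.2 CPM in MDA-MB-231 and 725 ± 26.3 CPM in SUM159PT, a difference that did not pass the edgeR test (adjusted p = 0.682). KRT18 was at 294 ± 5.2 and 167 ± 5.38 CPM. KRT7 was 4.48-fold higher in SUM159PT, at 2202 ± 21 against 492 ± 11.2 CPM (edgeR adjusted p = 3.83e-17). KRT19, in contrast, read 287, 282, 293 and 274 CPM in MDA-MB-231 and had no count in any SUM159PT library, which makes it at least 6368-fold higher in MDA-MB-231 against a floor of 3 counts over the 4 libraries. SPDEF, an ETS factor of secretory luminal cells, was at 13.4 ± 0.796 CPM in MDA-MB-231 and 0.306 ± 0.148 CPM in SUM159PT. FOXA1 was the reverse, at 0.17 ± 0.174 and 3.3 ± 0.362 CPM, and GATA3 was at 17.2 ± 0.608 and 10.6 ± 1.62 CPM.

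Transcription factors that fix the position and lineage of cells in the embryo differed in both directions, with 21 of 48 tested members 2-fold higher in SUM159PT and 18 in MDA-MB-231. IRX2, an Iroquois homeobox factor, read 0.122, 0.0518, 0.113 and 0 CPM in MDA-MB-231 and 5979, 5008, 6615 and 5648 CPM in SUM159PT. The groups were separated by more than 4 orders of magnitude on the CPM scale, with a log2 difference of 16.21 ± 0.16 (SE, edgeR adjusted p = 2.43e-18). The gene lies on chromosome 5 from 2745845 to 2751662 on the minus strand (hg38). C5orf38, its neighbour on the plus strand, starts 469 bases away and went the same way: it had 2 counts over all MDA-MB-231 libraries and 1113, 1038, 1165 and 1086 CPM in SUM159PT. The ratio of its levels was 39071, with a counting interval from 10816 to 322622. IRX2 and C5orf38 are thus transcribed away from each other from the stretch whose IRX2 side is printed above.

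Other lineage factors followed the same on-or-off pattern. TBX3, a T-box factor of limb and mammary development, had no count in MDA-MB-231 and 93.2, 82.3, 107 and 95.8 CPM in SUM159PT, at least 2690-fold higher. FOXC2, a forkhead factor of mesenchyme and vessels, had 2 counts over the MDA-MB-231 libraries and 119 ± 17 CPM in SUM159PT. EN1, a homeobox factor of limb and brain patterning, had no count in MDA-MB-231 and 23.2 ± 1.88 CPM in SUM159PT. TBX18 (0.141 ± 0.0331 against 72.7 ± 8.27 CPM), the cardiac factor NKX2-5 (0.156 ± 0.0517 against 119 ± 7.29 CPM) and FOXD1 (0.0361 ± 0.049 against 76.6 ± 6.15 CPM) were likewise near 0 in MDA-MB-231. None of the SUM159PT libraries overlapped the MDA-MB-231 libraries for any of these 6 genes.

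MDA-MB-231 had lineage factors of its own. SOX9, a factor of cartilage and of stem-like epithelium, read 167, 167, 173 and 168 CPM there and 0.709, 0.358, 0.562 and 1.16 CPM in SUM159PT, a log2 difference of -7.84 ± 0.11 (SE, edgeR adjusted p = 3.6e-17). NR2F2, the nuclear receptor COUP-TFII, was at 326 ± 11.5 against 38.8 ± 2.28 CPM, and its relative NR2F1 at 7.23 ± 0.602 against 0.0796 ± 0.059 CPM. SIX2 was at 8.95 ± 0.982 CPM in MDA-MB-231 with no count in SUM159PT, and GLI2, an effector of Hedgehog signalling, at 20.2 ± 1.35 against 1.77 ± 0.293 CPM. Of 48 tested members of the lineage factor list, 21 were 2-fold higher in SUM159PT and 18 in MDA-MB-231. PITX1 was at a like level in both, 157 ± 10.6 and 201 ± 10.7 CPM.

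The HOX genes, homeobox factors that encode position along the body axis, stand in clusters A to D. Of the 39 HOX genes, 18 passed the filter on low counts, of which 14 were 2-fold higher in SUM159PT and 4 in MDA-MB-231. The median of those 18 was 7.31 on the log2 scale, and 5.28 when genes without counts in 1 line were set to their bound. These medians describe only the genes that passed, each of which had to be present in at least 1 line. In the HOXA cluster, HOXA3, HOXA4, HOXA5, HOXA9 and HOXA10 had no count in MDA-MB-231 and reached 7.41 ± 0.698 CPM in SUM159PT for HOXA3 and 5.77 ± 0.537 CPM for HOXA10. In the HOXC cluster, HOXC10 went from no count to 21.1, 25.4, 27 and 24.9 CPM, and HOXC8 from 0.537 ± 0.185 to 15.7 ± 0.435 CPM. HOXB9 and HOXB3 of the HOXB cluster were the reverse. HOXB9 read 21.9, 23.5, 23.1 and 22.5 CPM in MDA-MB-231 and had 2 counts over the SUM159PT libraries. HOXB3, named like HOXA13 after its values were seen, was at 4.28 ± 1.11 CPM in MDA-MB-231 with no count in SUM159PT. HOXA13, at the far end of its cluster, also went against its neighbours, at 1.7 ± 0.301 against 0.0299 ± 0.0597 CPM. HOX genes overlap their neighbours and antisense transcripts, 31% of the HOXA4 exons on the same strand, and reads there could have been split.

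**Figure D2:**
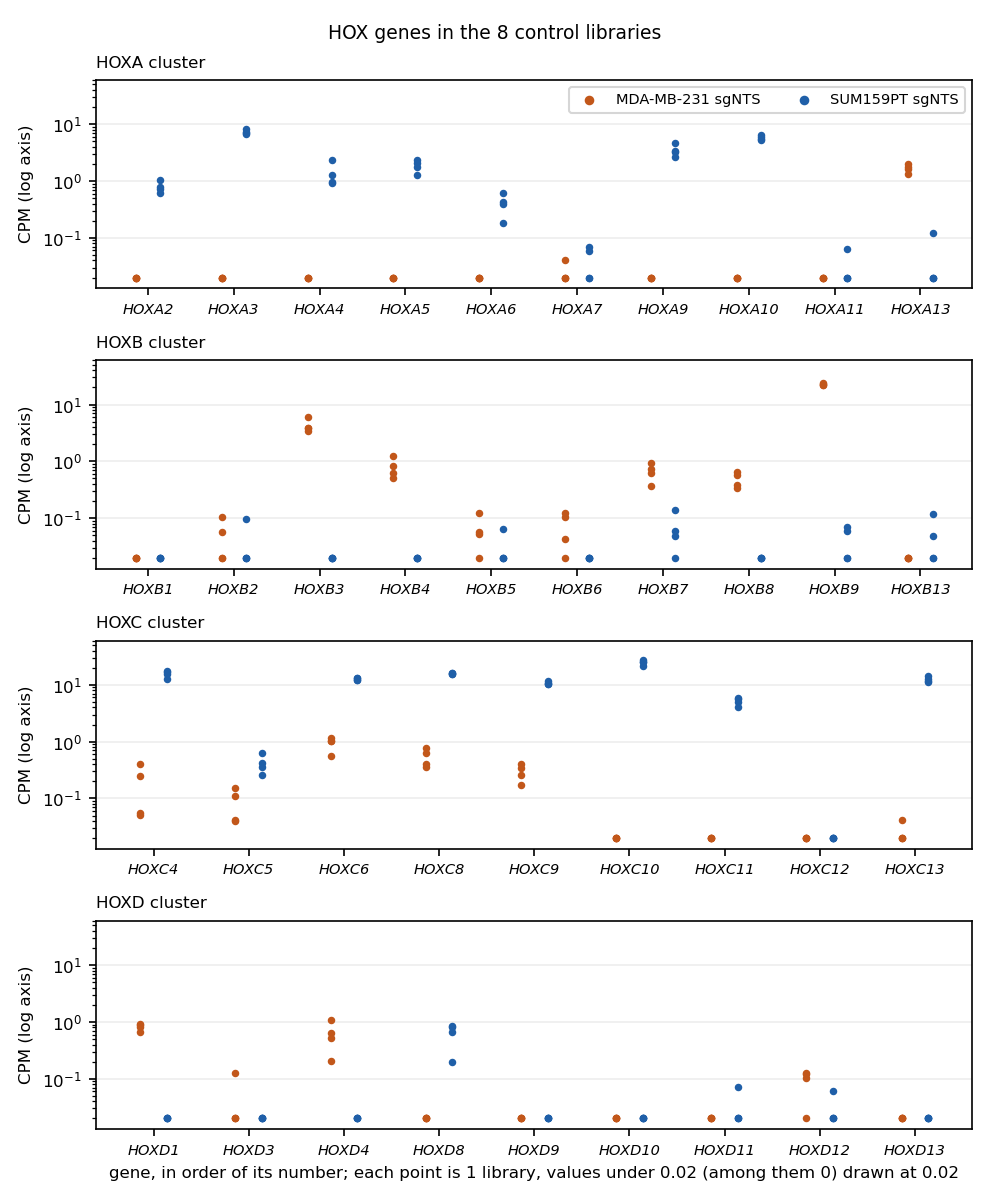
CPM of the HOX genes reported here in each of the 8 control libraries, 1 panel per cluster, on a log axis with values under 0.02 drawn at 0.02 (orange MDA-MB-231, blue SUM159PT). The blue points of HOXA3, HOXA10, HOXC8 and HOXC10 lie far above the orange ones, and the reverse holds for HOXB3, HOXB9 and HOXA13.

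The epithelial genes that passed the filter were mostly lower in SUM159PT. E-cadherin was near 0 in both lines: CDH1 had 9 counts over the MDA-MB-231 libraries and none in SUM159PT. Of 30 genes of epithelial junctions and their regulators, 19 were tested, 15 of which were 2-fold higher in MDA-MB-231 and 2 in SUM159PT. Their median was -5.46 (-5.28 with bounds). The other 11 were too low to test, and the medians describe only genes present in at least 1 line. EPCAM, an epithelial adhesion molecule, read 12.7, 10.1, 13.6 and 10.6 CPM in MDA-MB-231 and had no count in SUM159PT, at least 263-fold. The tight junction gene CLDN4 read 194, 184, 202 and 199 CPM against 2.06, 3.22, 2.67 and 2.31 CPM. SPINT2, an inhibitor of membrane serine proteases, stood at 171 ± 4.26 against 0.306 ± 0.144 CPM, a log2 difference of -9.07 ± 0.10 (SE, edgeR adjusted p = 4.37e-18). EHF, an epithelial ETS factor, was at 65.3 ± 6.11 against 0.0673 ± 0.0779 CPM, and CLDN7 at 14.9 ± 2.09 against 0.157 ± 0.149 CPM. The splicing regulator ESRP1 and the epithelial factor GRHL2 were too low to test, with 18 and 4 counts over the MDA-MB-231 libraries and 1 and 0 over those of SUM159PT.

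Genes that anchor epithelial cells to each other and to the basement membrane were more often higher in MDA-MB-231. Of 28 basal, desmosome and hemidesmosome genes, 21 were tested, 11 of which were 2-fold higher in MDA-MB-231 and 4 in SUM159PT. LAMB3 read 876, 866, 910 and 916 CPM in MDA-MB-231 and 12.2, 10.6, 15.6 and 14.4 CPM in SUM159PT. It encodes a chain of a basement membrane laminin, whose alpha chain LAMA3 (71.1 ± 5.16 against 32.7 ± 2.24 CPM) was also lower in SUM159PT. ITGB4, the integrin chain of hemidesmosomes, was at 361 ± 5.27 against 7.05 ± 0.786 CPM (log2 difference -5.68 ± 0.06 SE, edgeR adjusted p = 2.43e-18). COL17A1 of the same structure was at 26.6 ± 0.73 against 0.36 ± 0.0875 CPM, and the desmosome plaque gene DSP at 161 ± 23.5 against 1.97 ± 0.316 CPM. The basal keratins were low in both lines: KRT14 had 1 and 2 counts, KRT17 had 24 and 2, and KRT5 none in MDA-MB-231 against 1.49 ± 0.273 CPM in SUM159PT. TP63, the master regulator of basal cells, was at 1.85 ± 0.216 against 9.68 ± 0.805 CPM.

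Mesenchymal genes were mostly higher in SUM159PT, while VIM, ZEB1 and SNAI2 were within 2-fold. Of 27 tested members, 15 were 2-fold higher in SUM159PT and 5 in MDA-MB-231, with a median of 1.08. VIM, the intermediate filament of mesenchymal cells, read 1143, 1104, 1118 and 1156 CPM in MDA-MB-231 and 1639, 1667, 1689 and 1673 CPM in SUM159PT, no overlap but a fold of 1.47. ZEB1 was at 70.5 ± 2.47 and 45.4 ± 5.04 CPM, and SNAI2 at 36.9 ± 1.75 and 35.8 ± 2.33 CPM, which did not pass the edgeR test (adjusted p = 0.479). TWIST1 had no count in MDA-MB-231 and 14.6 ± 1.03 CPM in SUM159PT.

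Cadherins divided the lines. CDH2, N-cadherin, read 0.53, 0.57, 0.507 and 0.548 CPM in MDA-MB-231 and 99.3, 88.4, 96.6 and 100 CPM in SUM159PT (log2 difference 7.46 ± 0.09 SE, edgeR adjusted p = 1.05e-17). CDH11, the cadherin of osteoblasts and fibroblasts, was the mirror image, at 85.1, 94.6, 92.1 and 93.3 CPM in MDA-MB-231 and without a count in SUM159PT, at least 2046-fold. Of 34 tested genes of the clustered and neural-type cadherin list, 18 were 2-fold higher in SUM159PT and 8 in MDA-MB-231. CDH13 (0.0801 ± 0.0566 against 52.9 ± 1.44 CPM) and PCDH9 (0.403 ± 0.136 against 36.5 ± 3.16 CPM) were on the SUM159PT side, and CDH4 (140 ± 9.49 against 0.356 ± 0.161 CPM) was on the other.

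**Figure D3:**
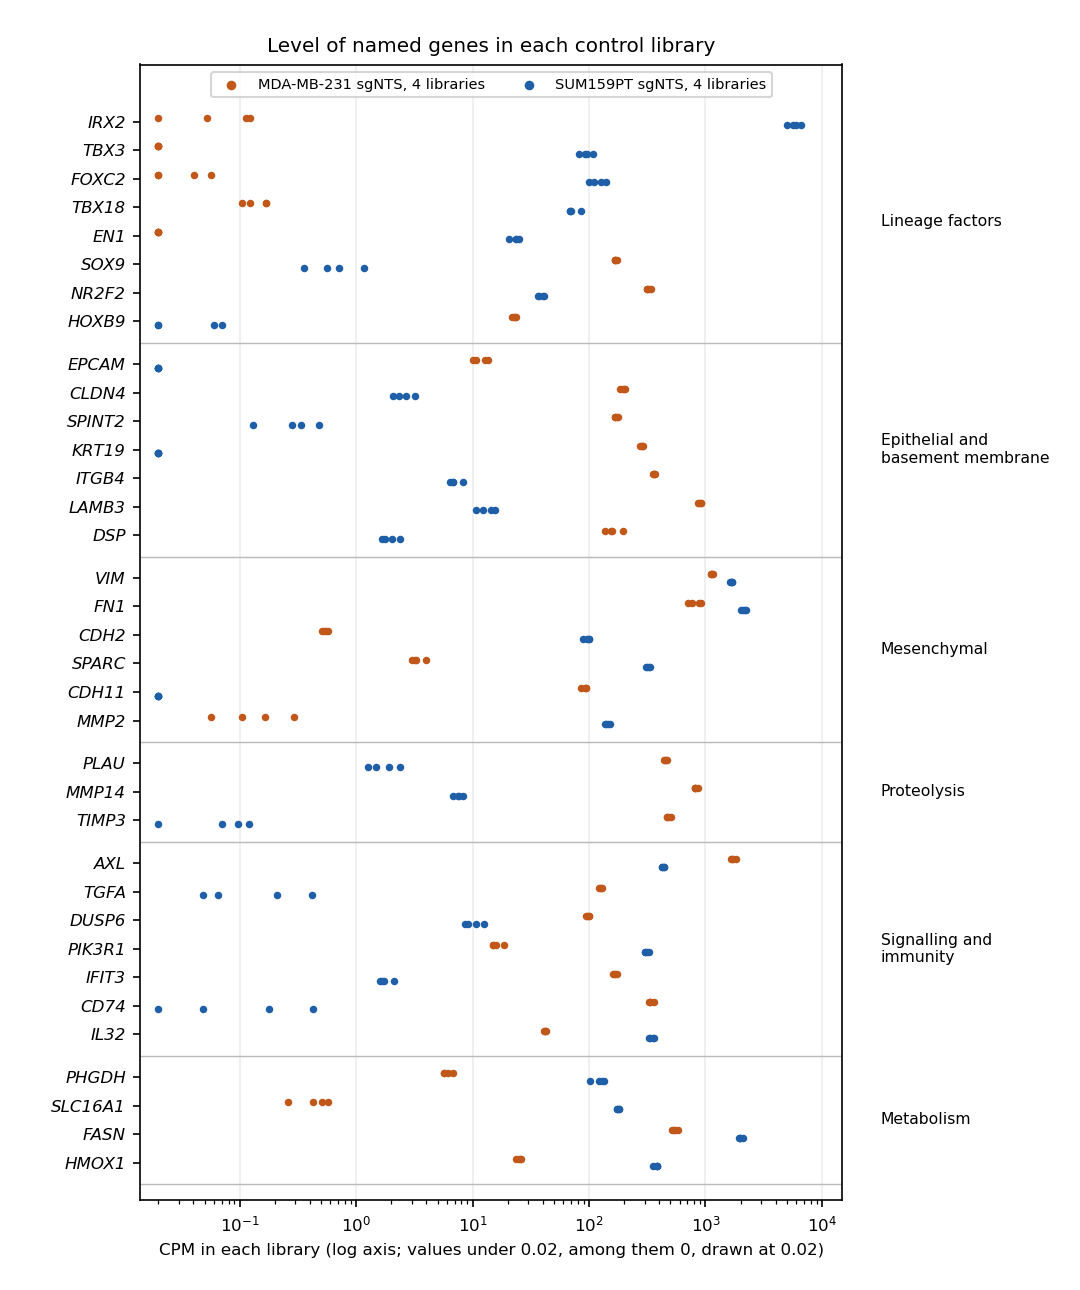
CPM of 35 named genes in each control library on a log axis (orange the 4 MDA-MB-231 libraries, blue the 4 SUM159PT libraries, values under 0.02 drawn at 0.02), grouped by role. The spread within a line is small beside the distance between the lines for nearly every gene shown, and VIM is the gene whose lines lie closest.

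Matrix genes were found on both sides. Of 21 tested collagens, 9 were 2-fold higher in SUM159PT and 8 in MDA-MB-231. COL5A2 (1.84 ± 0.151 against 107 ± 4.14 CPM) and COL4A6 (0.816 ± 0.215 against 92.2 ± 1.81 CPM) were on the SUM159PT side. COL13A1 (187 ± 6.58 against 0.953 ± 0.228 CPM), COL6A2 (150 ± 8.11 against 0.636 ± 0.265 CPM) and COL7A1, the anchoring fibril collagen (319 ± 51.2 against 22.8 ± 2.86 CPM), were on the MDA-MB-231 side. The type I chains separated: COL1A1 was 55 ± 1.87 CPM in SUM159PT and 14.9 ± 1.85 CPM in MDA-MB-231, whereas COL1A2 had no count in SUM159PT and 2.52 ± 0.296 CPM in MDA-MB-231. FN1, fibronectin, read 713, 772, 880 and 910 CPM in MDA-MB-231 and 2219, 2187, 2017 and 2088 CPM in SUM159PT, all above. SPARC, a collagen-binding glycoprotein, was at 3.36 ± 0.437 against 323 ± 11.1 CPM, and FBLN1, fibulin 1, at 3.2 ± 0.358 against 621 ± 13 CPM (log2 difference 7.60 ± 0.06 SE, edgeR adjusted p = 4.92e-19). TGFBI, a TGF-beta-induced matrix protein, was among the most abundant genes on this side, at 376 ± 15.3 against 2533 ± 51.9 CPM. THBS1, thrombospondin 1, was abundant in both, at 2190 ± 176 and 1165 ± 39.1 CPM.

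Enzymes that cut the matrix stood on the MDA-MB-231 side: of 24 tested proteases and plasminogen system genes, 14 were 2-fold higher there and 3 in SUM159PT, with a median of -2.16. MMP14, the membrane-bound collagenase, read 818, 811, 856 and 820 CPM in MDA-MB-231 and 8.32, 7.58, 7.44 and 6.85 CPM in SUM159PT (log2 difference -6.78 ± 0.05 SE, edgeR adjusted p = 4.92e-19). PLAU, the urokinase plasminogen activator, read 438, 454, 463 and 448 CPM against 1.48, 1.25, 2.39 and 1.93 CPM, and its receptor PLAUR was at 137 ± 4.84 against 17.6 ± 0.801 CPM. Of the exonic PLAU sequence, 31% overlaps a gene on the other strand. The sheddases ADAM8 (259 ± 16.4 against 1.66 ± 0.473 CPM) and ADAM19 (92 ± 6.03 against 0.288 ± 0.118 CPM) and the collagenase MMP1 (19.5 ± 1.55 CPM against 2 counts) went the same way. MMP2, the gelatinase that MMP14 is known to activate, did the opposite, at 0.155 ± 0.103 against 144 ± 6.29 CPM, and ADAM12 was at 8.94 ± 0.946 against 117 ± 5.55 CPM.

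An inhibitor of these enzymes was near 0 in SUM159PT. TIMP3, which inhibits metalloproteinases and sheddases, read 463, 469, 504 and 485 CPM in MDA-MB-231 and 0, 0.119, 0.0702 and 0.0964 CPM in SUM159PT, 5 counts in all (log2 difference -12.53 ± 0.11 SE, edgeR adjusted p = 8.65e-19). TGM2, a transglutaminase that crosslinks matrix, was at 1345 ± 52.3 CPM in MDA-MB-231 and 173 ± 9.4 CPM in SUM159PT.

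Of 15 tested integrins, 7 were 2-fold higher in MDA-MB-231 and 4 in SUM159PT. Laminin- and collagen-binding chains, namely ITGA6 (548 ± 27.6 against 113 ± 3.83 CPM), ITGA3 (1952 ± 65.1 against 583 ± 22.6 CPM) and ITGA2 (245 ± 27.8 against 48.9 ± 3.94 CPM) and their common partner ITGB1 (1041 ± 14.9 against 489 ± 9.89 CPM), were higher in MDA-MB-231. The fibronectin receptor chain ITGA5 was 224 ± 8.07 CPM there and 354 ± 6.02 CPM in SUM159PT. CD44, the hyaluronan receptor, was at 1052 ± 35.4 against 183 ± 6.74 CPM, whereas the membrane peptidases MME (CD10, 1 count against 274 ± 7.07 CPM) and ANPEP (CD13, 0.0611 ± 0.0451 against 532 ± 8.79 CPM) were near 0 in MDA-MB-231. PDPN, podoplanin, had no count in MDA-MB-231 and 155, 153, 155 and 163 CPM in SUM159PT, at least 4450-fold.

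Growth factor receptors and ligands were more often on the MDA-MB-231 side: of 40 tested members, 22 were 2-fold higher there and 6 in SUM159PT, with a median of -1.17. AXL, a receptor kinase of mesenchymal tumour cells, read 1666, 1682, 1739 and 1816 CPM in MDA-MB-231 and 426, 422, 443 and 443 CPM in SUM159PT. EGFR was at 360 ± 58.7 against 156 ± 6.69 CPM, EPHA2 at 469 ± 6.24 against 214 ± 28.5 CPM and EPHB2 at 102 ± 3.18 against 1.4 ± 0.185 CPM. Of the ligands of EGFR, TGFA read 123, 128, 124 and 128 CPM against 0.0645, 0.418, 0.211 and 0.0482 CPM. AREG was at 79.2 ± 2.32 against 15 ± 3.24 CPM, HBEGF at 109 ± 2.91 against 20.4 ± 3.87 CPM and EREG at 64.8 ± 2.33 against 17.3 ± 4.97 CPM. The lymphatic growth factor VEGFC was at 70.8 ± 1.8 against 2.18 ± 0.301 CPM. The fibroblast growth factors were exchanged, FGF5 at 21.3 ± 1.56 against 0.299 ± 0.186 CPM and FGF2 at 0.0818 ± 0.04 against 41.6 ± 3.46 CPM.

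HRAS and NRAS, which encode RAS proteins, were within 2-fold between the lines, NRAS only just. HRAS was at 106 ± 3.17 CPM in MDA-MB-231 and 75.2 ± 1.88 CPM in SUM159PT, and NRAS at 166 ± 3.21 and 83.4 ± 1.74 CPM. Of 33 genes of the RAS pathway and ERK targets, 8 were 2-fold higher in MDA-MB-231 (24.2% against 20.1% of all genes) and 3 in SUM159PT, and for 13 the 95% interval of the difference lay wholly within 1.5-fold. DUSP6, a phosphatase and feedback inhibitor of ERK, read 96.5, 98.9, 99 and 93.8 CPM in MDA-MB-231 and 12.4, 8.54, 10.7 and 9.16 CPM in SUM159PT, and 40% of its exons overlap a gene on the other strand. DUSP4 was at 346 ± 8.62 against 37 ± 2.04 CPM, FOSL1, an AP-1 subunit, at 725 ± 15.2 against 124 ± 13.5 CPM, and PHLDA1 at 542 ± 15.7 against 72.9 ± 19.3 CPM. SPRY1 (16.1 ± 1.06 against 2.46 ± 0.462 CPM) and SPRED3 (17.1 ± 0.893 against 1.48 ± 0.304 CPM), further inhibitors of the pathway, went the same way. CCND1, cyclin D1, was at 1007 ± 33.6 against 367 ± 13.6 CPM. The 3 higher in SUM159PT were the immediate-early factor EGR1 (22.7 ± 2.64 against 103 ± 47.1 CPM), NF1, a RAS GTPase-activating protein (26.5 ± 6.44 against 87.5 ± 6.35 CPM), and RASGRP1, a RAS exchange factor (0.374 ± 0.183 against 0.97 ± 0.0862 CPM).

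In the PI3K pathway, 4 of 26 tested genes were 2-fold higher in SUM159PT and 6 in MDA-MB-231, and the median was -0.07. PIK3R1, the regulatory subunit p85 alpha, read 15, 14.8, 15.9 and 18.5 CPM in MDA-MB-231 and 324, 304, 315 and 304 CPM in SUM159PT (log2 difference 4.27 ± 0.06 SE, edgeR adjusted p = 5.1e-17). The catalytic subunit PIK3CA was at 28 ± 2.55 and 31.3 ± 0.868 CPM, and PIK3CD at 30.1 ± 0.428 against 0.823 ± 0.261 CPM. FOXO1, a transcription factor that AKT excludes from the nucleus, was at 8.22 ± 0.163 against 134 ± 4.61 CPM.

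Secreted immune signals were found on both sides. Of 33 tested cytokines and chemokines, 9 were 2-fold higher in SUM159PT and 14 in MDA-MB-231. IL11, a cytokine known from bone metastasis, read 66.3, 63.3, 63.1 and 73.8 CPM in MDA-MB-231 and had 2 counts over the SUM159PT libraries. CXCL1 (22.8 ± 1.4 CPM) and the death ligand TNFSF10 (40.4 ± 3.7 CPM) had no count in SUM159PT. CXCL1 has near-identical relatives among which reads could have been split. CSF2, the growth factor GM-CSF, was at 16.7 ± 0.532 against 0.357 ± 0.172 CPM. IL32, on the other side, read 41.5, 40.8, 41.9 and 42.3 CPM in MDA-MB-231 and 331, 325, 352 and 358 CPM in SUM159PT. IL18 was at 9.67 ± 0.808 against 60.8 ± 2.66 CPM, and IL6R at 2.3 ± 0.109 against 54.4 ± 3.48 CPM. CXCL8 was at 90 ± 3 and 99.2 ± 38.7 CPM and did not pass the edgeR test (adjusted p = 0.545). NFKB1 stood at 98 ± 2.2 and 102 ± 9.01 CPM (edgeR adjusted p = 0.393), while its target SOD2 was at 104 ± 1.99 against 851 ± 152 CPM and ICAM1 at 139 ± 6.01 against 32 ± 3.42 CPM.

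Most interferon-stimulated and RNA-sensing genes were lower in SUM159PT. Of 42 members, all tested, 25 were 2-fold higher in MDA-MB-231 and 3 in SUM159PT, with a median of -1.80. IFIT3, an antiviral effector, read 160, 167, 167 and 173 CPM in MDA-MB-231 and 1.68, 1.73, 2.11 and 1.59 CPM in SUM159PT (log2 difference -6.56 ± 0.07 SE, edgeR adjusted p = 3.13e-18). Its neighbours IFIT1 (67.4 ± 1.89 against 0.668 ± 0.147 CPM) and IFIT2 (95.5 ± 1.51 against 0.733 ± 0.195 CPM) went with it. HERC5, the ISG15 ligase, was at 47.3 ± 0.6 against 0.159 ± 0.131 CPM, and ISG15 itself at 133 ± 4.04 against 15 ± 1.03 CPM. The RNA sensor RIG-I (DDX58, 60.1 ± 3.76 against 3.21 ± 0.538 CPM), the DNA-sensing adaptor STING (TMEM173, 43.1 ± 2.53 against 4.25 ± 0.301 CPM) and its partner CGAS (71.4 ± 3.22 against 22 ± 1.26 CPM) were lower too. IFITM1 was higher in SUM159PT, at 12.4 ± 0.897 against 43.2 ± 2.8 CPM, with 32% of its exons shared with another gene on the same strand.

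Genes of antigen presentation were mostly higher in MDA-MB-231, those of class II by the most among the genes named here. Of 28 tested members, 15 were 2-fold higher in MDA-MB-231 and 2 in SUM159PT, with a median of -1.20. CD74, the class II invariant chain, read 335, 335, 360 and 328 CPM in MDA-MB-231 and 0, 0.179, 0.421 and 0.0482 CPM in SUM159PT. HLA-DRA read 45.1, 44.7, 45.7 and 41.6 CPM and had no count in SUM159PT, at least 993-fold, and CIITA, the transactivator of class II genes, was at 29.3 ± 1.92 against 1.8 ± 0.515 CPM. Among class I genes, HLA-B was at 781 ± 32.7 against 77.8 ± 5.45 CPM and HLA-C at 157 ± 9.95 against 70.9 ± 1.1 CPM. HLA genes are polymorphic and similar, and how well reads of each line map to the reference alleles was not tested. B2M, the invariant light chain, was at 697 ± 19.8 and 604 ± 8.41 CPM. The peptide trimming enzymes ERAP1 (103 ± 2.56 against 36.9 ± 1.61 CPM) and ERAP2 (12.5 ± 0.588 against 48.7 ± 3.07 CPM) were exchanged.

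**Figure D4:**
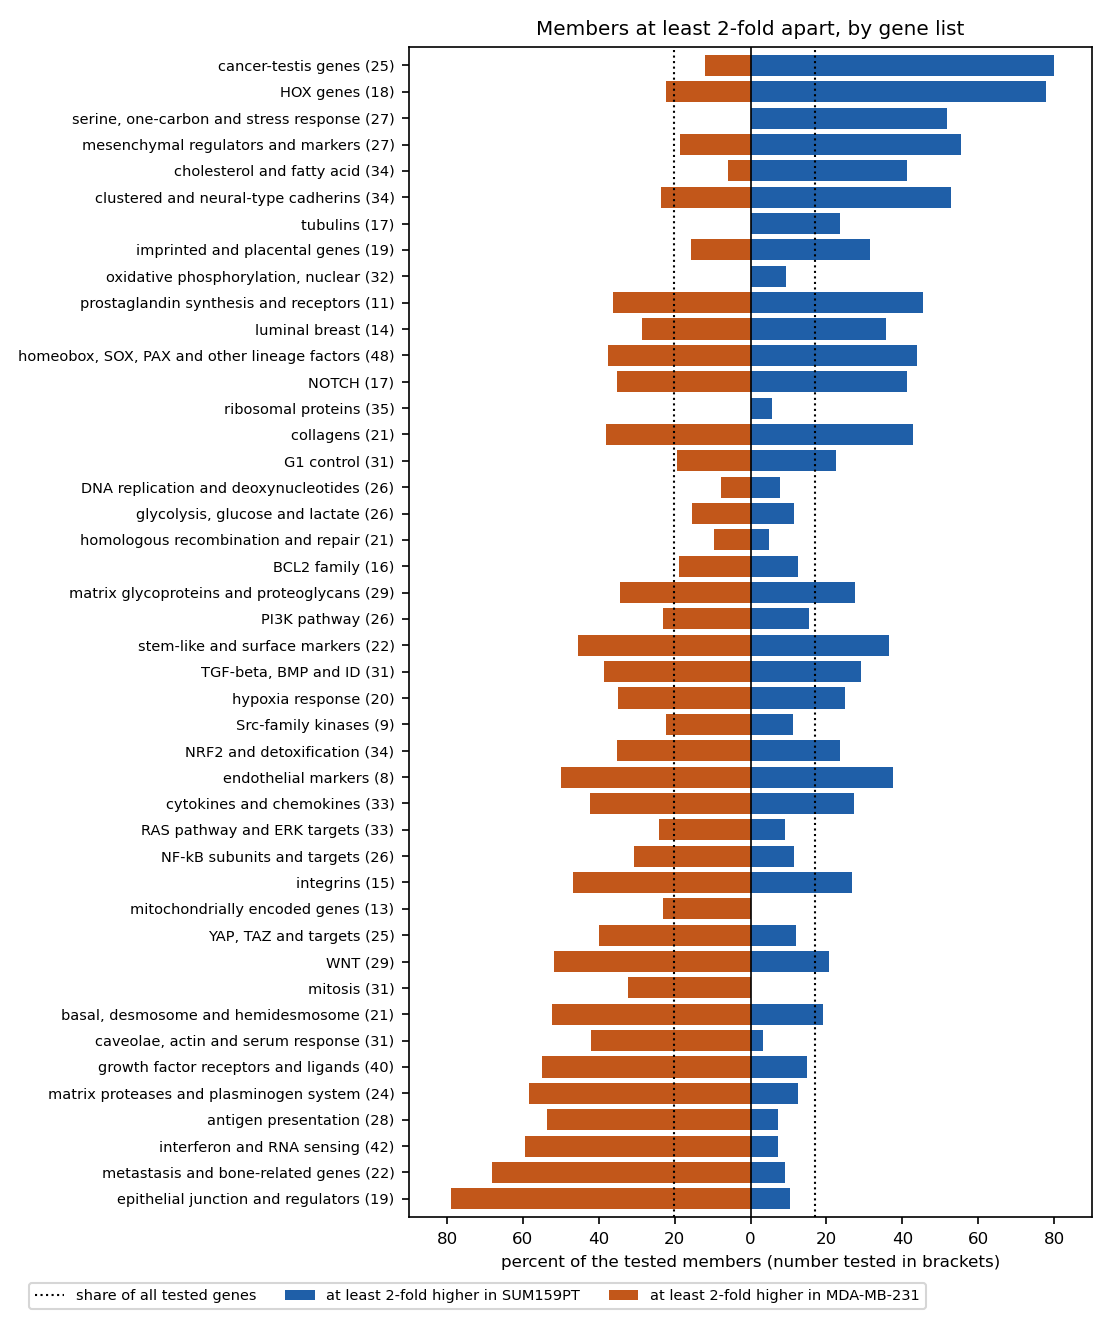
For each gene list with at least 5 tested members, the percent of tested members at least 2-fold higher in SUM159PT (blue, to the right) and in MDA-MB-231 (orange, to the left), with the number tested in brackets and the share of all tested genes as dotted lines (16.9% and 20.1%). Cancer-testis and HOX genes reach furthest to the right, and epithelial junction and metastasis-related genes furthest to the left.

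Serine synthesis, one-carbon metabolism and the amino acid stress response were mostly higher in SUM159PT, a difference in which line and medium cannot be told apart. Of 27 tested members, 14 were 2-fold higher in SUM159PT and 0 in MDA-MB-231, with a median of 1.10. In the edgeR fit 3 of the 27 were called higher in MDA-MB-231 at a smaller fold, among them GLUL (93.8 ± 2.77 against 49.4 ± 2.81 CPM). PHGDH, which opens the synthesis of serine from glucose, read 6.73, 5.7, 6.14 and 5.64 CPM in MDA-MB-231 and 134, 103, 128 and 121 CPM in SUM159PT (log2 difference 4.32 ± 0.09 SE, edgeR adjusted p = 3.74e-15). MTHFD2 of mitochondrial one-carbon metabolism was at 54.2 ± 2.75 against 242 ± 27.4 CPM, and the stress transcription factor ATF4 at 238 ± 3.16 against 512 ± 46.7 CPM. TRIB3, a target of ATF4 named after its values were seen, read 44.6, 45.9, 47.1 and 47.7 CPM against 401, 225, 430 and 326 CPM, and DDIT4, an inhibitor of mTOR, 78.7, 74.5, 82.3 and 73 CPM against 812, 554, 749 and 735 CPM. Replicate 2 of SUM159PT was the lowest of its group for PHGDH, TRIB3 and DDIT4, and still above every MDA-MB-231 library. In the libraries with the YES1 guide the log2 differences of these genes were smaller, 3.35 for PHGDH, 1.25 for TRIB3 and 1.11 for DDIT4. ASNS, asparagine synthetase, had a log2 difference of 2.16 with sgNTS and -0.45 with sgYES1, and 45% of its exons are shared with another gene on the same strand. The difference between the guides was not tested.

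The lactate transporters were exchanged. SLC16A1 (MCT1), which mainly takes lactate up, read 0.571, 0.259, 0.507 and 0.421 CPM in MDA-MB-231 and 173, 182, 173 and 179 CPM in SUM159PT (log2 difference 8.61 ± 0.09 SE, edgeR adjusted p = 2.43e-18). SLC16A3 (MCT4), which exports it, was at 685 ± 24 CPM in MDA-MB-231 and 261 ± 10.4 CPM in SUM159PT. The glucose transporter SLC2A1 was at 626 ± 19.5 against 220 ± 5.61 CPM, and lactate dehydrogenase LDHA at 1292 ± 24.6 and 1383 ± 33.1 CPM. Of 26 glycolysis genes, 3 were 2-fold higher in SUM159PT and 4 in MDA-MB-231. HIF1A (274 ± 6.58 against 782 ± 39.9 CPM) and EPAS1 (83.8 ± 5.27 against 284 ± 5.52 CPM), the oxygen-sensing factors, were higher in SUM159PT, while the hypoxia target NDRG1 was at 219 ± 8.85 against 49 ± 1.8 CPM. The stanniocalcins went in opposite ways, STC1 at 65 ± 1.49 against 6.12 ± 1.28 CPM and STC2 at 0.916 ± 0.153 against 409 ± 70 CPM.

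Lipid synthesis genes were mostly higher in SUM159PT, 14 of 34 tested at 2-fold against 2 in MDA-MB-231, with a median of 0.77. FASN, fatty acid synthase, read 537, 511, 547 and 580 CPM in MDA-MB-231 and 1990, 2114, 1928 and 1995 CPM in SUM159PT, 3.69-fold without overlap. SCD, the desaturase of its product, was at 124 ± 5.11 against 756 ± 22 CPM, and SQLE of the sterol branch at 18.1 ± 0.418 against 86.5 ± 3.19 CPM. The genes that MDA-MB-231 held higher were FADS2 (115 ± 3.92 against 18.9 ± 1.89 CPM) and CPT1A, which carries fatty acids to their oxidation (124 ± 4.55 against 23.2 ± 1.8 CPM).

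Detoxification genes were found on both sides. Of 34 tested members, 8 were 2-fold higher in SUM159PT and 12 in MDA-MB-231. HMOX1, heme oxygenase, read 25.3, 23.6, 25.4 and 25.9 CPM in MDA-MB-231 and 356, 384, 387 and 382 CPM in SUM159PT, and AKR1C2, a steroid-reducing enzyme with close paralogs, was at 0.546 ± 0.193 against 128 ± 3.21 CPM. CYP1B1, an oestrogen-oxidising cytochrome, was at 338 ± 21.9 against 3.83 ± 0.707 CPM, the secreted peroxidase GPX3 at 123 ± 3.16 against 2.09 ± 0.317 CPM and ALDH1A3 at 19.6 ± 1.1 against 0.412 ± 0.236 CPM. NQO1, a standard target of NRF2, was at 243 ± 5.9 and 280 ± 6.18 CPM. FTH1, the ferritin heavy chain, was at 777 ± 29.8 against 2212 ± 72.9 CPM, with 62% of its exons overlapping genes on the other strand.

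Most mitosis genes were somewhat lower in SUM159PT. Of 31 mitosis genes, 10 were 2-fold higher in MDA-MB-231 and 0 in SUM159PT, with a median of -0.41, and 25 of the 31 were called higher in MDA-MB-231 and 5 in SUM159PT without the fold limit, against 42.3% and 40.4% of all genes tested. BUB1, a spindle checkpoint kinase, was at 241 ± 1.71 against 87.1 ± 3.58 CPM, and CENPE, a kinetochore motor, at 103 ± 6.75 against 35.4 ± 4.11 CPM. PLK1 was at 179 ± 5.66 and 168 ± 11.2 CPM and did not pass the edgeR test (adjusted p = 0.103), and CCNB1, cyclin B1, was at 272 ± 7.91 and 333 ± 22.2 CPM. Of 26 replication genes, 2 were 2-fold higher in each line. Those in SUM159PT were MCM2 of the replicative helicase, at 130 ± 4.42 against 344 ± 16.1 CPM, and CDT1, its loader, at 81.3 ± 6.86 against 198 ± 3.27 CPM. MYC read 198, 185, 194 and 196 CPM in MDA-MB-231 and 1190, 888, 1204 and 1091 CPM in SUM159PT (log2 difference 2.50 ± 0.08 SE, edgeR adjusted p = 2.45e-13). CDKN1A, an inhibitor of cyclin-dependent kinases, was at 151 ± 3.84 against 60.1 ± 4.32 CPM.

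Transcripts of the 9p21 tumour suppressors were not detected above the floor in either line. CDKN2A, which encodes p16 and ARF, and its neighbour MTAP had 0 counts in all 8 libraries, and CDKN2B had 0 and 1, which at this depth limits their level to 0.0352 CPM over the MDA-MB-231 libraries and 0.0446 CPM over those of SUM159PT at 3 counts. The genes on the telomeric side set the lines apart. KLHL9 had 0 counts in MDA-MB-231 and 7.48, 6.63, 6.04 and 4.87 CPM in SUM159PT. MLLT3 was the reverse, at 14.1, 12.9, 14.7 and 15.5 CPM in MDA-MB-231 with 0 counts in SUM159PT, and FOCAD had 187 counts against 2. PLIN2, a lipid droplet protein further out, named like HAUS6 after its values were seen, had 7365 counts against 8, while HAUS6 had 5282 and 5095. The labels give no copy number, and loss of DNA was not measured.

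Among repair genes, 1 of 21 tested was 2-fold higher in SUM159PT and 2 in MDA-MB-231. BRCA1 was at 55.3 ± 3.32 and 60 ± 2.52 CPM and BRCA2 at 28.4 ± 5.6 and 24.9 ± 1.33 CPM, and neither passed the edgeR test (adjusted p = 0.0508 and 0.131). The gene on the SUM159PT side was SLFN11, which blocks stressed replication forks and marks sensitivity to DNA-damaging drugs, at 0.245, 0.104, 0.225 and 0.211 CPM in MDA-MB-231 and 43.1, 44.1, 41.6 and 43 CPM in SUM159PT. MGMT, which repairs alkylated guanine, had 0 counts in all 8 libraries.

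The Src family, to which the gene targeted elsewhere in the study belongs, had 9 of 15 listed kinases and regulators tested, of which 2 were 2-fold higher in MDA-MB-231 and 1 in SUM159PT. YES1 was at 107 ± 3.19 CPM in MDA-MB-231 and 92.5 ± 3.67 CPM in SUM159PT (log2 difference -0.21, edgeR adjusted p = 0.000242), and SRC at 78.8 ± 2.74 and 85.2 ± 2.5 CPM. Those higher in MDA-MB-231 were FYN, at 44.6 ± 0.777 against 21.9 ± 2.8 CPM, and the related kinase PTK6, at 25.4 ± 1.65 against 0.163 ± 0.0509 CPM. CBLB, a ubiquitin ligase, was the 1 higher in SUM159PT, at 14.1 ± 0.637 against 32.1 ± 3.4 CPM. Of 16 tested BCL2 family genes, 2 were 2-fold higher in SUM159PT and 3 in MDA-MB-231. The death-promoting proteins PMAIP1 (NOXA, 125 ± 4.8 against 4.39 ± 1.03 CPM) and BCL2L11 (BIM, 23.2 ± 1.25 against 4.24 ± 0.789 CPM) were lower in SUM159PT, and BCL2 was at 16.4 ± 2.18 and 23 ± 1.23 CPM.

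Several targets of YAP and TAZ, transcription co-activators that respond to cell tension and density, were lower in SUM159PT. Of 25 tested members, 10 were 2-fold higher in MDA-MB-231 and 3 in SUM159PT. ANKRD1 read 257, 252, 254 and 260 CPM in MDA-MB-231 and 2.64, 2.69, 2.88 and 1.69 CPM in SUM159PT. CTGF (322 ± 6.83 against 86.1 ± 4.54 CPM) and CYR61 (1062 ± 7.94 against 348 ± 21 CPM) followed by less. TAZ, encoded by WWTR1, was at 93.5 ± 1.35 against 24.6 ± 1.18 CPM and YAP1 at 220 ± 10.7 against 131 ± 3.75 CPM, while NF2, an upstream inhibitor of both, was at 14.9 ± 0.703 against 83.9 ± 2.86 CPM. VGLL3, a cofactor of the same TEAD factors, was at 6.65 ± 1.58 against 115 ± 7.75 CPM.

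Of 31 tested genes of caveolae, actin and the serum response, 13 were 2-fold higher in MDA-MB-231 and 1 in SUM159PT. FLNC, the muscle filamin, read 974, 983, 1020 and 1158 CPM in MDA-MB-231 and 0.0645, 0, 0.14 and 0.0482 CPM in SUM159PT (log2 difference -13.93 ± 0.14 SE, edgeR adjusted p = 2.22e-18). Its replicate 4 in MDA-MB-231 was the highest of the group. CAV1, the coat protein of caveolae, was at 732 ± 25.1 against 214 ± 13.3 CPM, and the contractile genes MYL9 (163 ± 4.23 against 12 ± 0.637 CPM) and CNN3 (338 ± 5.09 against 42 ± 0.438 CPM) went the same way. TPM1 was higher in SUM159PT, at 83.7 ± 4.5 against 159 ± 4.03 CPM. Of 17 tested tubulins and microtubule genes, 4 were 2-fold higher in SUM159PT, led by MAP2, a dendritic microtubule protein, at 1.9 ± 0.074 against 135 ± 6.53 CPM.

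Developmental signalling genes were found on both sides. In the TGF-beta and BMP list, 9 of 31 tested were 2-fold higher in SUM159PT and 12 in MDA-MB-231. BMP4 was at 120 ± 1.63 against 0.864 ± 0.455 CPM, and FST, which binds activin, at 37.8 ± 4.19 CPM against 1 count, while its relative FSTL3 was at 49.9 ± 3.64 against 329 ± 20.8 CPM. TGFB1 was at 146 ± 2.69 and 243 ± 11 CPM, and the receptor TGFBR2 at 238 ± 8.54 and 172 ± 7.82 CPM. The co-receptor ENG, known from endothelium, was at 2.99 ± 0.662 against 157 ± 3.93 CPM. In the WNT list, 15 of 29 tested were 2-fold higher in MDA-MB-231 and 6 in SUM159PT. DKK1, a secreted antagonist, read 250, 250, 252 and 250 CPM in MDA-MB-231 and 6.77, 10.3, 5.76 and 7.43 CPM in SUM159PT, and DKK3 was the reverse at 2.35 ± 0.64 against 129 ± 3.72 CPM. WNT7B (51.8 ± 2.62 against 0.637 ± 0.388 CPM) and WNT5B (32.5 ± 1.83 against 0.14 ± 0.132 CPM) were on the MDA-MB-231 side and WNT5A (0.387 ± 0.217 against 8.11 ± 0.555 CPM) on the other. In the NOTCH list 7 of 17 tested were 2-fold higher in SUM159PT and 6 in MDA-MB-231. NOTCH1 was at 163 ± 9.41 and 174 ± 9.25 CPM, and the ligand JAG2 was at 14.7 ± 1.21 against 127 ± 2.68 CPM.

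Genes tied in earlier work to metastasis of MDA-MB-231 were on its side: of 22 tested, 15 were 2-fold higher there and 2 in SUM159PT, with a median of -5.32 (-4.73 with bounds). Since this list was drawn from studies of that line, its direction is not independent evidence. KISS1, a peptide known as a metastasis suppressor, was at 39.7 ± 1.32 CPM with no count in SUM159PT, and the chemokine receptor CXCR4 at 8.96 ± 0.289 CPM against 1 count. The secreted cystatins CST1 (26.2 ± 2.1 CPM) and CST4 (12.3 ± 2.09 CPM) had no count in SUM159PT, though their sequences are close to each other. FSCN1, fascin, an actin bundler of invasive cells, went against the list at 54.8 ± 2.41 against 665 ± 36.4 CPM. L1CAM, a neural adhesion molecule, was at 236 ± 5.94 against 0.391 ± 0.104 CPM, and PODXL at 657 ± 25.2 against 15.8 ± 1.28 CPM.

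Among genes that are normally limited to the germ line, those that passed the filter were mostly higher in SUM159PT. Of 47 cancer-testis genes, 25 were tested, of which 20 were 2-fold higher in SUM159PT and 3 in MDA-MB-231, with a median of 5.11. The other 22 were too low to test, and 7 of the 47 had 0 counts in all libraries. The median describes only the genes that passed, each of which had to be present in at least 1 line. MAGEA12 had 1 count in MDA-MB-231 and 36.3 ± 1.32 CPM in SUM159PT, MAGEA1 had 0 counts and 8.08 ± 0.637 CPM, and MAGEA6 was at 2.54 ± 0.678 against 55.1 ± 1.91 CPM. The MAGEA genes are near copies of each other, so the share of reads that each received is uncertain. PAGE5 was at 0.371 ± 0.184 against 54.5 ± 3.58 CPM. CTAG1B, which encodes NY-ESO-1, had 0 counts in all 8 libraries.

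Of 19 tested imprinted and placental genes, 6 were 2-fold higher in SUM159PT and 3 in MDA-MB-231. PLAGL1, an imprinted zinc finger factor, was at 0.0505 ± 0.0427 against 34.4 ± 0.802 CPM, and the retrotransposon-derived PEG10 at 119 ± 9.3 against 374 ± 25.8 CPM. SNHG14, the long transcript of the Prader-Willi locus, was at 0.0562 ± 0.0794 against 45.8 ± 1.37 CPM. Among other genes that do not code for protein, CASC19, which lies near MYC, read 0.286, 0.466, 0.282 and 0.379 CPM in MDA-MB-231 and 595, 475, 569 and 541 CPM in SUM159PT. LINC00958 had 3 counts against 58.4 ± 3.66 CPM. On the other side, ZNF702P had 20.8 ± 1.54 CPM in MDA-MB-231 and no count in SUM159PT, and TP73-AS1 24.4 ± 2.58 CPM against 3 counts.

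By a rule of at least 1 CPM in every library of a line and at most 3 counts over the other, 233 genes were detected in SUM159PT only and 437 in MDA-MB-231 only. Of these, 153 and 358 were protein-coding, 46 and 26 were long intergenic RNAs, and 11 and 7 exceeded 100 CPM. The protein-coding genes met the same rule in the sgYES1 libraries in 118 of 153 cases for SUM159PT and 222 of 358 for MDA-MB-231. The abundant ones in SUM159PT included NPTX2, a secreted pentraxin (210 ± 10.7 CPM), the potassium channel KCNH2 (155 ± 2.85 CPM) and TMTC1 (336 ± 11.5 CPM against 3 counts). In MDA-MB-231 they included the glycogen phosphorylase PYGL (166 ± 2.69 CPM), the peroxidase PXDN (205 ± 12.2 CPM against 1 count), the sulfotransferase CHST15 (118 ± 4.2 CPM) and G0S2, an inhibitor of lipolysis (264 ± 7.32 CPM against 2 counts). Of the 153 and 358 protein-coding genes, 69.3% and 74.9% were matched to a promoter. Among those matched, 60 of 106 (56.6%) and 169 of 268 (63.1%) had a CpG-rich promoter at 1 start or more. The share was 69.0% among all matched protein-coding genes and 85.6% among the tested ones. These differences were not tested, and the unmatched genes and the number of starts per gene could shift them.

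Some of the largest differences were shared by neighbouring genes. Along 12647 ordered protein-coding genes of at least 1 CPM in either line, 39 runs of 3 or more neighbours were found. All members of a run were at least 8-fold apart in 1 direction by mean CPM, with the floor of 3 counts. Of the runs, 28 were higher in MDA-MB-231 and 11 in SUM159PT, with 141 genes in all. Of all tested genes, 8.61% were called at least 8-fold higher in MDA-MB-231 and 4.83% in SUM159PT. How many runs these shares alone would give was not tested. The HOXA and HOXC runs were among the 11, as was a run of cadherins on chromosome 5 with CDH18 (0.0105 against 10.2 CPM), CDH12 (0 against 6.26 CPM) and CDH6 (0.0309 against 19.6 CPM). IL1RL1, the receptor of IL-33, and IL18R1 formed a run with SLC9A2 on chromosome 2. IL1RL1 was at 0.0105 against 101 CPM and IL18R1 at 0.194 against 71.6 CPM. The annotated spans of IL1RL1 and IL18R1 overlap, so these genes are not wholly separate neighbours. RHAG (0 against 32.8 CPM), CRISP2 (0 against 5.21 CPM) and CRISP3 (0 against 31.7 CPM) formed another on chromosome 6, and SULT1E1, the oestrogen sulfotransferase, was at 0 against 42.6 CPM in a run on chromosome 4. On the other side, 5 runs with 22 zinc finger genes on chromosome 19 were low in SUM159PT, for instance ZNF347 (29 against 0.0552 CPM), ZSCAN18 (25.6 against 0 CPM) and ZNF880 (8.02 against 0 CPM). IFIT1, IFIT2 and IFIT3 formed a run on chromosome 10. A run on chromosome 7 held LRRC61 (99.2 against 0 CPM) and ZBED6CL (32.6 against 0 CPM), which lies within the span of LRRC61. How reads were shared between them was not tested. The values in this paragraph are means of 4 libraries, first MDA-MB-231 and then SUM159PT.

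Whole nuclear chromosomes were shifted by less than 2-fold. Over genes of at least 1 CPM in either line, the median log2 difference of the nuclear chromosomes ran from -0.41 on chromosome 11 to 0.57 on chromosome 16, and across the 16 pairs of libraries the median of chromosome 16 stayed between 0.53 and 0.61. Windows of 40 neighbouring genes were added after the data were seen. Their median ran from -1.90, on chromosome 11 from 119.1 to 125.6 Mb, to 1.00, on chromosome 3 from 124.1 to 131.0 Mb. The middle 90% of the 306 windows lay between -0.62 and 0.64. By mean CPM alone, without a test, the chromosome 11 window held 26 genes at least 2-fold higher in MDA-MB-231 and 6 in SUM159PT. ESAM, an endothelial marker, was among the 26. Whether these shifts follow DNA copy number was not tested.

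**Figure D5:**
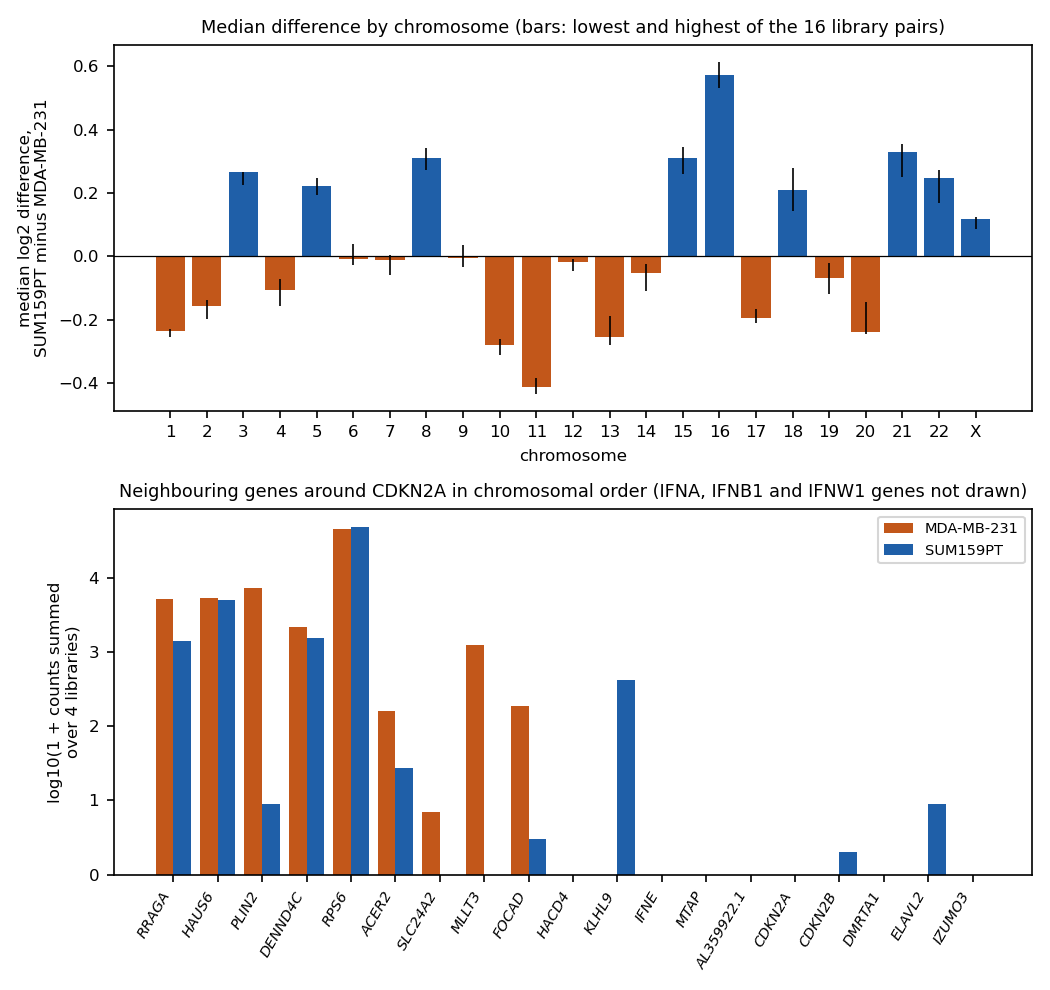
Upper panel, the median log2 difference (SUM159PT minus MDA-MB-231) of genes on each nuclear chromosome, with lines from the lowest to the highest of the 16 library pairs; chromosome 16 lies highest at 0.57 and chromosome 11 lowest at -0.41. Lower panel, log10 of 1 plus the counts summed over 4 libraries for genes around CDKN2A in chromosomal order; KLHL9 has counts in SUM159PT only and MLLT3 in MDA-MB-231 only, and the bars of MTAP and CDKN2A are at 0.

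Markers of other cell types were also read. Of 20 leukocyte markers, 4 passed the filter and 7 had 0 counts in all libraries, and their summed level was 19.8 to 23.8 CPM in MDA-MB-231 and 8.12 to 9.55 CPM in SUM159PT. CSF1R, the macrophage growth factor receptor, accounted for part of it at 7.58 ± 0.361 against 0.378 ± 0.199 CPM. Of 14 endothelial markers, 8 were tested. ESAM, an endothelial adhesion molecule, was at 105 ± 3.89 against 0.204 ± 0.11 CPM and ROBO4 at 41.8 ± 1.03 against 0.233 ± 0.0928 CPM, whereas ERG, an endothelial ETS factor, had no count in MDA-MB-231 and 13.4 ± 0.647 CPM in SUM159PT. Ribosomal protein genes were shifted by a median of 0.42, with 2 of 35 2-fold higher in SUM159PT, and nuclear genes of oxidative phosphorylation by 0.45, with 3 of 32. Of 13 mitochondrially encoded genes, 3 were 2-fold higher in MDA-MB-231 (23.1% against 20.1% of all genes), and 5 did not pass the edgeR test. MT-ND3 was at 713 ± 199 against 277 ± 11.4 CPM, whereas MT-CO1 was at 8636 ± 2694 against 8993 ± 106 CPM. The summed level of the 13 overlapped between the lines, at 21219 to 47275 CPM in MDA-MB-231 and 30632 to 32106 CPM in SUM159PT, with the lowest mitochondrial share in replicate 4 of MDA-MB-231. Over all 29 genes of the mitochondrial chromosome of at least 1 CPM in either line, the sign of the median turned with the pair of libraries, from -1.01 to 0.19.

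The lines were also compared in the 8 libraries that received the YES1 guide, which share no library with the comparison above. Of 15349 genes tested with both guides, 5598 were 2-fold apart with sgNTS, and 4649 of these (83.0%) were also called and 2-fold apart in the same direction with sgYES1. The sign was the same for 5562 (99.4%). IRX2 had a log2 difference of 14.88 there, FLNC of -12.28, TIMP3 of -11.42, CD74 of -11.40 and MMP14 of -7.19. The values were -4.66 for IFIT3, -6.38 for IL11 and 6.63 for SLC16A1. A call 2-fold in the opposite direction was made for 1 gene, GADD45G, a stress-induced growth inhibitor named after its values were seen, which was at 0.891 ± 0.12 against 2.77 ± 0.403 CPM with sgNTS and had means of 8.68 against 2.81 CPM with sgYES1. How far the guides differ was not tested.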

How the data were processed

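RNA was selected on poly-T beads and sequenced from 8 control libraries, per the labels' protocols. The authors deposited raw counts per gene, 1 table per line with 58735 genes in each, joined here by gene identifier. The submitters' processing notes list HISAT2 2.0.5, featureCounts 1.5.0-p3 and hg38; whether counting used strand is not stated there.

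Genes were filtered with filterByExpr (smallest count 10, smallest total 15), scaled by the trimmed mean of M values and fitted with edgeR 4.0.16 in R 4.3.3 on the 8 libraries by line, with Benjamini-Hochberg adjustment over all tested genes. Standard errors are those implied by the F statistic. The script was tested on simulated data. The libraries share replicate numbers only, and the main fit has no block. Alternatives were library totals, RLE scaling, no filter, DESeq2 1.42.0, a replicate block, all 16 libraries, glmTreat and each library left out.

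The members and lists were chosen with earlier results of these data known. Named genes were preset list members, up to 4 further members per list with the smallest p, the 10 largest folds at 20 CPM or more, the 8 most abundant at 4-fold or more, the 4 noncoding genes of largest fold at 5 CPM or more, per direction, and members of runs. Other genes are said to be named after their values were seen. Exons shared with another gene are given where they reach 30%. Some genes are not reported here.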

Additional observations from a re-analysis of the deposited data

Results flagged for a closer look

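Among the genes named in the report, 411 groups of 4 libraries had a mean of at least 1 CPM, and in 13 of them 1 library stood apart from its 3 partners by Dixon's gap criterion. Chance marks about 1 in 20 groups. Of the 13, 6 were in MDA-MB-231 and 7 in SUM159PT, 4 of the latter in replicate 2.

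In SUM159PT, replicate 2 was the lowest for the stress factor ATF4, at 442 CPM against 527 to 541 in the other libraries. The same library was the highest for CAV1 (234 CPM against 205 to 209), CIITA (2.57 against 1.47 to 1.61) and KRT8 (764 against 710 to 713). Replicate 1 was the lowest for HMOX1 (356 CPM against 382 to 387) and the highest for MAGEA1 (9.03 against 7.67 to 7.82) and TBX18 (85.1 against 68.2 to 69.3).

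In MDA-MB-231, replicate 4 was the highest for MMP1 (21.9 CPM against 18.6 to 18.9). Replicate 2 was the highest for COL17A1 (27.7 CPM against 26.2 to 26.4) and NRAS (171 against 164 to 165) and the lowest for KRT8 (698 against 743 to 747). Replicate 1 was the lowest for CYR61 (1050.1 CPM against 1065 to 1067) and EPHB2 (96.9 against 103 to 104). The levels of KRT8 overlapped between the lines, and those of the other genes named here did not.

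GADD45G went in opposite directions with the 2 guides, by 1.62 with sgNTS and by -1.63 with sgYES1 on the log2 scale, with no overlap between lines in either set. EGR1 likewise differed by 2.16 with sgNTS and by -0.42 with sgYES1. The differences between the guides were not tested.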

How the results depend on the processing

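The number of genes called lay between 12661 and 13608 over the other scalings, tools and designs, at 15598 with no filter, and between 12707 and 12974 with 1 library left out. With no filter, 4727 genes were 2-fold higher in MDA-MB-231, and with a test against the 2-fold limit itself 2112 and 2689 were called. The stricter rule of 5 CPM and 0 counts left 56 genes detected in SUM159PT only and 110 in MDA-MB-231 only.

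The replicate numbers did not pair the libraries, and with the replicate block 12753 genes were called, 2641 of them 2-fold higher in SUM159PT and 3122 in MDA-MB-231.

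List medians moved by more than the spread between libraries in few cases: with DESeq2 to 6.88 for HOX and -5.42 for metastasis genes, and with no filter to 0.21 for glycolysis and -0.0223 for hypoxia. With 1 library left out, the medians ran from -6.26 to -5.07 (epithelial), 1.03 to 1.15 (mesenchymal), -0.333 to 0.0371 (cytokines), -0.45 to -0.21 (TGF-beta), 7.10 to 7.38 (HOX), 4.98 to 5.37 (cancer-testis), 1.12 to 1.5001 (cadherins), -5.85 to -5.27 (metastasis) and -2.30 to -1.30 (endothelial). At 5 CPM the medians of chromosomes 10, 18 and 19 were -0.31, 0.142 and -0.0124. The cause was not tested.

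Of 3724 values of 266 named genes, 3691 kept direction and side of the threshold. Changes of sign were seen for genes near 0: ERBB2 at -0.00191 with library totals, -0.0351 with no filter and -0.0115 to 0.0382 with 1 library left out; and, likewise left out, CXCL8 at -0.0845 to 0.362, KRT8 at -0.0405 to 0.000891, MT-CO1 at -0.121 to 0.198 and SNAI2 at -0.0687 to 0.00393. The 25 changes of call were in BRCA1, BRCA2, CXCL8, LDHA, NOTCH1, PIK3CA, PLK1 and SRC, and the call of PIK3CA was lost under 9 settings. By edgeR, CXCL8 (adjusted p = 0.00295), PLK1 (0.0366) and NOTCH1 (0.0134) passed without SUM159PT replicate 2, BRCA1 passed without MDA-MB-231 replicate 4 (0.0153) or SUM159PT replicate 4 (0.0229), NOTCH1 passed without MDA-MB-231 replicate 4 (0.0128), and BRCA2 passed without MDA-MB-231 replicate 1 (0.00485). SRC missed the threshold without MDA-MB-231 replicate 1 (0.0898), MDA-MB-231 replicate 2 (0.0536) or SUM159PT replicate 4 (0.0582). Depth limits what can be said of genes near the floor of 3 counts.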
